A study of Rattus norvegicus with 6 samples.

Results

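The loci described here encode the nuclear subunits of the oxidative phosphorylation complexes and the factors that assemble them. They were chosen by symbol, as every locus of the assembled rat brain transcriptome with a reference gene name beginning Nduf, Sdha to Sdhd, Sdhaf, Uqcr, Uqcc, Cox with a digit or Atp5, or equal to Cyc1 or Cycs. The choice gave 64 loci of 24744 quantified loci, of which 8336 carry a reference gene name, and 237 isoforms. Of these isoforms, 59 were added by aptardi, a program that predicts polyadenylation sites from RNA sequencing and DNA sequence and adds transcripts with a new 3′ end. PolyA RNA of the whole brain was sequenced from 3 naïve male rats of the SHR strain (SHR/OlaIpcvPrin, the spontaneously hypertensive rat) and 3 naïve male rats of the BNLx strain (BN-Lx/CubPrin, a Brown Norway congenic strain). Both are inbred strains, no treatment was given, and the ages are not in the sources used here. A library is 1 rat, and in a whole-brain sample fewer cells of a type and less RNA per cell cannot be told apart.

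Oxidative phosphorylation takes place in the inner mitochondrial membrane. Complex I accepts electrons from NADH and complex II from succinate. Complex III passes them to cytochrome c, complex IV hands them to oxygen, and complex V, the ATP synthase, uses the resulting proton gradient to make ATP. Most subunits are encoded in the nucleus, a few core ones in the mitochondrial genome, and neurons depend on the pathway for most of their ATP. The mitochondrially encoded subunits were not analysed here.

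The libraries held 21745966 to 41333078 expected counts in SHR and 11747048 to 32826625 in BNLx. In each strain 1 library was unlike the rest, SHR replicate 1 and BNLx replicate 3. The chi-square per degree of freedom between libraries was 154.4 and 143.1 for SHR replicate 1 against the other SHR libraries, which differed from each other by 10.5. It was 107.2 and 84.2 for BNLx replicate 3 against the other BNLx libraries, which differed from each other by 12. Fold changes of the main members are given with all 6 libraries, followed by the values without both. Both libraries were picked by their counts in these same data. The adjusted p values without both are therefore descriptive and give no independent support. Neuron markers were present in every library, with Snap25 at 1223, 2269 and 2250 TPM (abundance scaled to transcript length and library size) in SHR and 2781, 3637 and 2107 TPM in BNLx.

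Promoter windows give the sequence context of these genes. RefSeq windows of 300 bases around the gene start, in the build GRCr8, matched 51 of the 64 loci by symbol and chromosome. The expression files use the build rn6, and no coordinates were carried between the builds. The windows were searched on both strands for short cores of 3 factors known to regulate nuclear genes of the respiratory chain. The core of nuclear respiratory factor 1 (NRF1), GCGCATGC, was in 9 of the 51 windows (17.6%), against 2.47% of all 33469 windows. The YY1 core, AAGATGGC, was in 7 (13.7%), against 3.17%, and the ETS family core, CCGGAAGT, was in 4 (7.8%), against 3.81%. Any of the cores was in 18 windows (35.3%), against 8.84%. The median GC content was 57.3% in the members' windows and 51.7% in all windows. The windows of the following genes are shown because Ndufs5 is the multi-exon member called at the gene level, Ndufaf4 had the lowest p of the complex I assembly factors, and Cycs encodes the electron carrier. Capitals mark an NRF1 core, which overlaps its own reverse complement in Ndufaf4. The Ndufs5 window holds none of the cores searched.
Ndufs5, chr5:141264353-141264652, minus strand: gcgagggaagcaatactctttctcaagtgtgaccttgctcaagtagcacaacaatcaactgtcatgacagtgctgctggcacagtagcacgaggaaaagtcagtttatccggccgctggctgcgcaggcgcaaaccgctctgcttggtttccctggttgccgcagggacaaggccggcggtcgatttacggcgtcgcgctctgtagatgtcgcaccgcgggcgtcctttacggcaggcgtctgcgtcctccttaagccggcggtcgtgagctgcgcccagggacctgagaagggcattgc
Ndufaf4, chr5:43401545-43401844, plus strand: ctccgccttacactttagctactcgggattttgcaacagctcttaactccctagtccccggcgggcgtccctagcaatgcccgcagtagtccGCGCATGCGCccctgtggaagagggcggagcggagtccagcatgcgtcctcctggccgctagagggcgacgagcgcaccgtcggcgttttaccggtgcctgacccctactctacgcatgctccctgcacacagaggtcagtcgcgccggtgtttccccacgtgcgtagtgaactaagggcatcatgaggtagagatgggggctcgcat
Cycs, chr4:80984718-80985017, minus strand: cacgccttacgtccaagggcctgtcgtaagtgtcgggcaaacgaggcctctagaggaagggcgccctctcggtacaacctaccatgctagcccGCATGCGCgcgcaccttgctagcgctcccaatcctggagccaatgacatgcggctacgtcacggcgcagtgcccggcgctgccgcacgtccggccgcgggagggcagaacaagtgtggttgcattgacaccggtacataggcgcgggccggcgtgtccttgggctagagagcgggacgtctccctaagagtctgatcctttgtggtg

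Expression of the loci was compared between SHR and BNLx to ask which members differ between the strains. A locus was tested when it had at least 50 counts in 2 of the 3 libraries of a strain, and 60 of the 64 passed. The loci that did not pass were Ndufa4l2, Cox4i2 and single-transcript loci on chromosome 2 named Ndufs6 and Cox6b1. Cox4i2, an isoform of a complex IV subunit best known from lung, had 58, 17 and 12 counts in SHR and 62, 19 and 19 counts in BNLx. The Ndufs6 locus (26471173 to 26471584) had at most 1 count in any library. The Cox6b1 locus, a single exon (211337271 to 211337531), had at most 3.01. No other member locus carries either name. Whether reads of these genes were counted at loci without a name was not tested, so these counts do not give the genes' levels in brain. At a Benjamini-Hochberg adjusted p of 0.05 in edgeR's quasi-likelihood test, 2 of the 60 members were called. Over all loci, 147 of 14471 (1.02%) were called. One member, Ndufs5, was lower in SHR, and the other, the Ndufa10l1 locus on chromosome 6, was higher. DESeq2 called 3 members, against 3.76% of all loci, adding the Ndufa10l1 locus on chromosome 9.

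Ndufs5 encodes an accessory subunit in the membrane arm of complex I. Its locus lies on the minus strand of chromosome 5 at 141390580 to 141405453 (rn6). As CPM, its counts scaled to the TMM-adjusted library total, it had 46.8, 33.4 and 35.2 CPM in the SHR libraries and 108, 97.1 and 79.0 CPM in the BNLx libraries. Every SHR library lay below every BNLx library, and the highest SHR value was that of replicate 1. On the length-scaled measure it had 253 ± 36.7 TPM in SHR and 589 ± 50.8 TPM in BNLx (SD, n = 3 each). The log2 fold change was -1.30 (SE 0.18, adjusted p = 0.0381 in edgeR's test). With DESeq2 the adjusted p was 9.92e-08. The call was lost without SHR replicate 2, SHR replicate 3, BNLx replicate 1 or BNLx replicate 2, with adjusted p of 0.196, 0.236, 0.160 and 0.153 in edgeR, while the log2 fold change stayed between -1.28 and -1.20. Without both libraries that stand apart it was -1.58 (SE 0.08, adjusted p = 0.000830).

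The Ndufs5 locus was assembled as 2 isoforms that share both ends and both downstream exons. They differ in the exon at the 5′ end, which is 92 bases long in the transcript named Ndufs5 (141405362 to 141405453) and 54 bases long in the unnamed one (141405400 to 141405453). The unnamed isoform held most of the counts, 83.7% ± 1.21 in SHR and 88.2% ± 0.762 in BNLx (SD, n = 3 each). It had 39.9, 27.9 and 30.1 CPM in SHR and 96.0, 86.1 and 71.6 CPM in BNLx. Its log2 fold change was -1.38 (SE 0.20), with an unadjusted p of 5.87e-04 and an adjusted p of 0.0762 in edgeR's test over all isoforms. Its call at an unadjusted p of 0.001 was lost without SHR replicate 2, SHR replicate 3, BNLx replicate 1 or BNLx replicate 2, with unadjusted p of 0.00325, 0.00408, 0.00303 and 0.00300 in edgeR. The named isoform had 8.12, 5.72 and 5.24 CPM in SHR and 14.0, 10.9 and 9.39 CPM in BNLx, with a log2 fold change of -0.84 (SE 0.28, adjusted p = 0.474). Both isoforms were lower in every SHR library than in any BNLx library. A change in their proportions was not detected by the usage test (diffSpliceDGE of edgeR, adjusted p = 0.731).

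Ndufa10l1, named for its likeness to the complex I accessory subunit Ndufa10, appears at 2 loci. The locus on chromosome 6 (62796456 to 62798384, minus strand) has a single exon, and the locus on chromosome 9 (99617052 to 99651813, minus strand) has 10 exons. The chromosome 6 locus had 17.2, 16.5 and 15.2 CPM in the SHR libraries and 0 counts in all 3 BNLx libraries. With a floor of 3 counts per library, its level was at least 83.6-fold higher in SHR (adjusted p = 0.00462 in edgeR's test). The call was lost without SHR replicate 2, where the adjusted p was 0.0603. The reads of this locus went almost wholly to a transcript with another name, AABR07064061.1, and transcripts named Ndufa10l1 held 0.728% of the counts. With those transcripts alone the locus did not pass the filter.

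The chromosome 9 locus of Ndufa10l1 had 115, 99.3 and 101 CPM in SHR and 144, 141 and 130 CPM in BNLx. The groups did not overlap, with SHR below BNLx. Its log2 fold change was -0.40 (SE 0.11), with an adjusted p of 0.271 in edgeR and 0.0229 in DESeq2. Without both libraries that stand apart, it was -0.51 (SE 0.06, adjusted p = 0.00520 in edgeR). Summed over both loci, Ndufa10l1 had 132, 116 and 116 CPM in SHR and 144, 141 and 130 CPM in BNLx, with a log2 fold change of -0.19 (SE 0.11, adjusted p = 0.637). The chromosome 6 locus made up 13.0%, 14.3% and 13.1% of this sum in the SHR libraries. The loci carry the same name, and how reads that match both were divided between them was not tested. The values of each locus taken alone are uncertain for that reason.

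**Figure D1:**
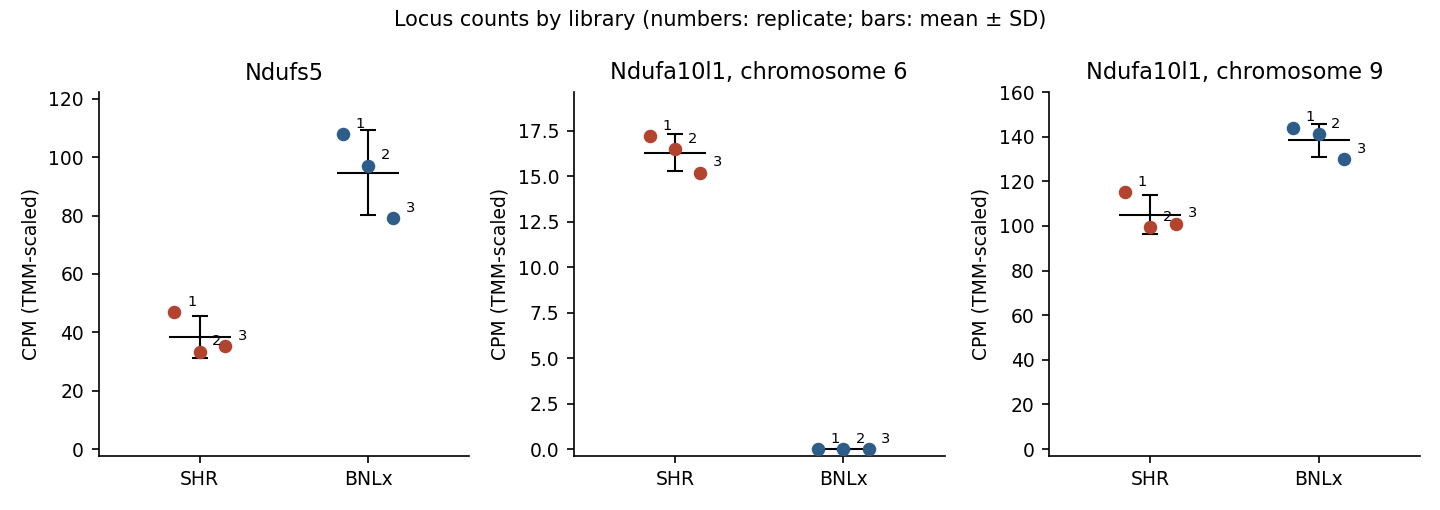
Normalised level (TMM-scaled CPM, vertical axis) of Ndufs5 and the Ndufa10l1 loci on chromosomes 6 and 9 in each SHR (left) and BNLx (right) library. Points are libraries, numbered by replicate, and bars give the mean and SD of 3 libraries. Ndufs5 lies between 33.4 and 46.8 CPM in SHR and between 79.0 and 108 CPM in BNLx, and the chromosome 6 locus has no counts in BNLx.

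The other members had smaller fold changes, mostly in 1 direction. Of the 60 tested members, 56 had a negative log2 fold change, against 49.9% of all 14471 loci, and the median was -0.16, against 0.00 over all loci. The median was -0.33 without SHR replicate 1 and -0.08 without SHR replicate 2. Levels in all 3 SHR libraries were below those of all 3 BNLx libraries for 9 members, against 8.49% of all loci. They were above for 1 member, the chromosome 6 locus of Ndufa10l1, against 8.97% of all loci. The 9 members below were Ndufs5, the chromosome 9 locus of Ndufa10l1, Ndufa7, Ndufaf1, Ndufaf4, Ndufaf5, Ndufaf7, Sdhb and Cox16. The median was negative in each complex and in each group of assembly factors, except that the lone complex II factor, Sdhaf4, turned to 0.21 in limma on log2(TPM + 1). On that scale 10 of the 60 members were positive, and the median was -0.11 for the members and 0.07 for all loci.

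The median deviation of a member from its own mean over the 6 libraries was 0.17, -0.27 and -0.18 on the log2 scale in SHR replicates 1, 2 and 3. In BNLx it was 0.21, 0.10 and -0.01. By this median over all members SHR replicate 1 lay among the BNLx libraries, and BNLx replicate 3 was the lowest of its strain. In BNLx replicate 3 the median of the subunits was -0.00, 0.04, -0.08, -0.07 and -0.07 in complexes I, II, III, IV and V. In the assembly factors of complexes I, II, III and IV it was 0.10, 0.14, 0.13 and 0.21 in that library. These groups hold only 7, 1, 2 and 2 tested loci. Transcripts with the member's own name held 8.55% of the counts of Sdhaf4, 9.55% of Cox14 and 15.9% of Cox16. The median deviation over all loci was between -0.01 and 0.03 in the 6 libraries. The members' summed level was 22051, 17106 and 17327 TPM in SHR and 21670, 20321 and 19434 TPM in BNLx. As a share of all TPM it was 2.21%, 1.71% and 1.73% in SHR and 2.17%, 2.03% and 1.94% in BNLx. The strains overlapped in this sum, since SHR replicate 1 was the highest of the 6 libraries.

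**Figure D2:**
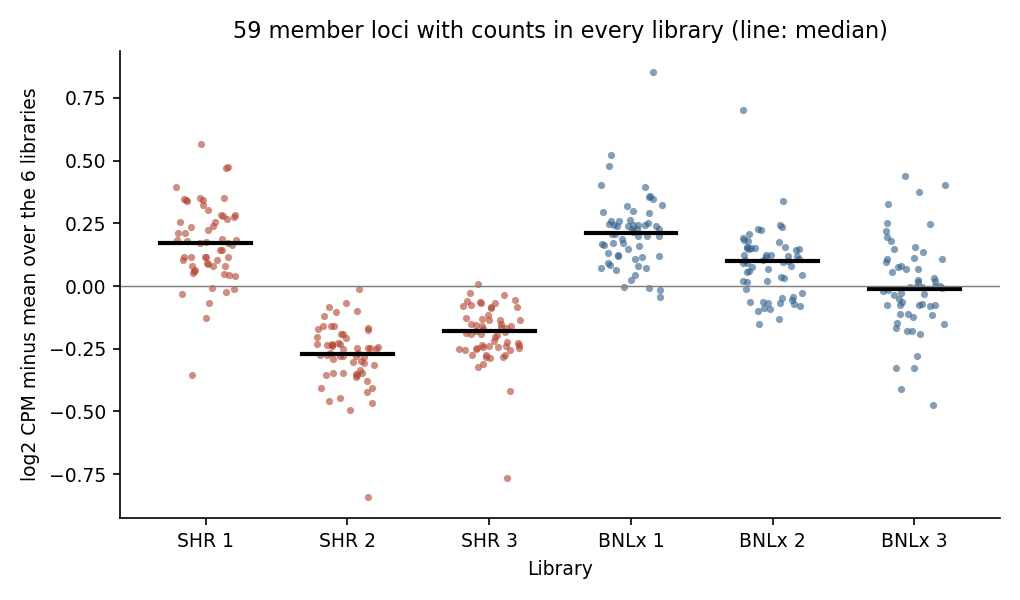
Log2 CPM of each member locus minus its own mean over the 6 libraries (vertical axis), by library (horizontal axis, SHR left of BNLx), for members with counts in every library. Points are loci and lines are medians. The medians are 0.17, -0.27 and -0.18 in the SHR libraries and 0.21, 0.10 and -0.01 in the BNLx libraries.

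Without SHR replicate 1 and BNLx replicate 3, 40 of the 60 members were called, 39 lower in SHR and 1 higher. In the same comparison 13.8% of all loci were called lower, and 4172 loci were called in either direction. The members' median log2 fold change was -0.37, against -0.01 over all loci, and 59 members were negative. This comparison has 2 libraries per strain, and the libraries left out were picked from these same data. By the member medians above, they are the highest SHR library (0.17) and the lowest BNLx library (-0.01). Leaving them out therefore widens the difference between the strains in the members' median. Without SHR replicate 1 alone, or BNLx replicate 3 alone, 2 of the 60 members were called. By complex, the members called lower were 15 of 25 complex I subunits and 3 of 7 complex I assembly factors. They were 1 of 2 complex II subunits, 4 of 5 complex III subunits and 1 of 2 complex III assembly factors. They also included Cycs, 5 of 7 complex IV subunits, both complex IV assembly factors and 7 of 8 complex V loci. The complex II assembly factor Sdhaf4 was not called, with a log2 fold change of -0.02.

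**Figure D3:**
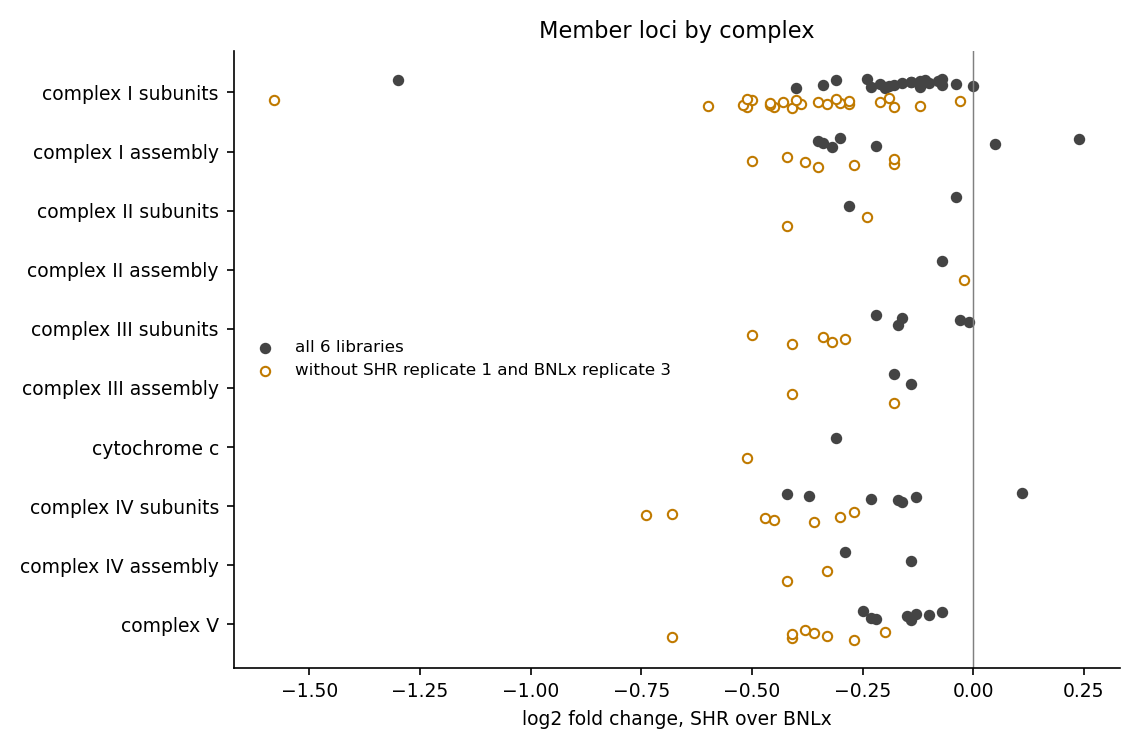
Log2 fold change of SHR over BNLx (horizontal axis) of each tested member locus, by complex (vertical axis). Filled points use all 6 libraries and open points leave out SHR replicate 1 and BNLx replicate 3. The Ndufa10l1 locus on chromosome 6, with 0 counts in BNLx, is left out. Medians over all members are -0.16 with all libraries and -0.37 without both, and Ndufs5 lies farthest to the left.

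Other features of the libraries moved with these values. Loci with a mean transcript length under 1000 bases that are not members held 30.1%, 25.3% and 26.6% of all TPM in SHR and 30.3%, 29.1% and 27.8% in BNLx, with SHR replicate 1 again apart from the other SHR libraries. Their median log2 fold change was -0.10 over 1087 tested loci, and -0.31 without both libraries that stand apart, against 0.01 in both comparisons for the 13324 longer loci. The 34 tested members under 1000 bases had medians of -0.18 and -0.41, and the 26 longer members had -0.14 and -0.33. Neuron markers with a named locus (Snap25, Syt1 and Gad1, 3 of 7 listed) summed to 2078 to 3287 TPM in SHR and 2745 to 4550 TPM in BNLx. The astrocyte markers Slc1a2, Slc1a3 and S100b (3 of 6) summed to 2022 to 2687 TPM in SHR and 2228 to 2383 TPM in BNLx, and the microglia markers Aif1, Cx3cr1 and P2ry12 (3 of 5) to 97.8 to 122 TPM in SHR and 86.8 to 101 TPM in BNLx. The markers of a list did not move alike. In edgeR with all libraries none was called, and the log2 fold change was 0.49 for Slc1a2, 0.41 for Slc1a3 and -0.61 for S100b, with adjusted p of 0.626, 0.408 and 0.161. The values without both were 0.48, 0.29 and -0.67, and all 3 were called (adjusted p = 0.0141, 0.0426 and 0.00640 in edgeR). Of the neuron markers, Snap25 had -0.68 in both comparisons (adjusted p = 0.541 and 0.0120 in edgeR), and Syt1 had 0.20 and 0.19. Gad1, the enzyme that makes GABA, had 349, 158 and 151 TPM in SHR and 178, 185 and 191 TPM in BNLx. Its log2 fold change was 0.20 with all libraries and turned to -0.39 without both (adjusted p = 0.898 and 0.00960 in edgeR). None of these markers was at 0 in all libraries. The part of transcript length or of cell types in the members' values was not tested.

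Complex I subunits carried the highest number of members. Of 27 loci, 25 were tested, 24 of them negative, with a median log2 fold change of -0.14. Their summed level was 7490, 5715 and 5806 TPM in SHR and 7540, 7011 and 6823 TPM in BNLx. The grouping is by symbol, so the sum takes in Ndufa4, which is now placed with complex IV. Ndufa4 had 1305, 917 and 875 TPM in SHR and 1225, 1150 and 1004 TPM in BNLx. Transcripts of other genes that share these loci are also in the sum. Ndufa7, a small accessory subunit, had 64.5, 49.0 and 53.0 CPM in SHR and 69.5, 70.3 and 71.4 CPM in BNLx, which do not overlap (log2 fold change -0.34, SE 0.13, adjusted p = 0.431 in edgeR, and -0.46, adjusted p = 0.0101, without both libraries that stand apart). The locus also holds Cd320, and transcripts named Ndufa7 held 51.4% of its counts. With those transcripts alone, Ndufa7 had 38.0, 23.7 and 26.1 CPM in SHR and 36.2, 32.8 and 26.5 CPM in BNLx, which overlap.

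Ndufs4, an accessory subunit of the matrix arm whose loss is used as a mouse model of Leigh syndrome, had 91.9, 71.5 and 70.9 CPM in SHR and 99.4, 101 and 90.0 CPM in BNLx. The groups overlapped through SHR replicate 1, and the log2 fold change was -0.31 (SE 0.14, adjusted p = 0.516 in edgeR) with all libraries and -0.50 (adjusted p = 0.00604) without both. Ndufb9 was among the most abundant subunits of complex I, with 455 ± 39.5 TPM in SHR and 489 ± 45.3 TPM in BNLx. Its log2 fold change was -0.14 (SE 0.16) with all libraries and -0.35 (SE 0.08, adjusted p = 0.0244 in edgeR) without both. Ndufs1, the largest subunit and part of the electron input module, had 172, 158 and 159 CPM in SHR and 167, 157 and 195 CPM in BNLx. It was near 0 also without both libraries that stand apart (log2 fold change -0.03, SE 0.06). Of the complex I subunit loci, that of Ndufa5 had the smallest difference, with a log2 fold change of -0.00 (SE 0.12). The locus also holds Iqub, and transcripts named Ndufa5 held 64.8% of its counts. With those transcripts alone the log2 fold change was -0.10 (SE 0.12).

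The complex I assembly factors were expressed at far lower levels, at 182 to 220 TPM in sum in SHR and 202 to 223 TPM in BNLx over 7 loci. They had a median log2 fold change of -0.30, and in 4 of the 7 every SHR library was below every BNLx library, against 8.49% of all loci. Ndufaf4, which acts with Ndufaf3 on an early assembly intermediate in human cells, had 32.1, 27.3 and 27.1 CPM in SHR and 34.0, 37.0 and 38.6 CPM in BNLx (log2 fold change -0.34, SE 0.12). Ndufaf7, a methyltransferase of a core subunit in human cells, had 30.6, 27.9 and 25.7 CPM in SHR and 36.7, 34.6 and 32.6 CPM in BNLx (log2 fold change -0.30, SE 0.12). Ndufaf5, which hydroxylates an arginine of Ndufs7 in human cells, had 22.2, 17.3 and 17.5 CPM in SHR and 26.6, 22.2 and 23.6 CPM in BNLx (log2 fold change -0.35, SE 0.15).
Ndufaf1, a factor for the membrane arm, had 17.1, 16.2 and 17.0 CPM in SHR and 19.0, 23.6 and 20.1 CPM in BNLx (log2 fold change -0.32, SE 0.13). Of the factors that did not overlap, none passed the threshold, with adjusted p between 0.396 and 0.518 in edgeR over all loci. Without both libraries that stand apart, Ndufaf4 (-0.38, adjusted p = 0.0267), Ndufaf7 (-0.42, adjusted p = 0.0222) and Ndufaf5 (-0.50, adjusted p = 0.0286) were called lower in edgeR, and Ndufaf1 (-0.35, adjusted p = 0.104) was not. SHR replicate 1 was the highest SHR library for each of these 4 factors, and for Ndufaf5 it lay just below the lowest BNLx library. Ndufaf3 and Ndufaf6 had positive log2 fold changes of 0.05 and 0.24, with SEs of 0.18 and 0.28, which turned to -0.18 for both without the libraries that stand apart.

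Complex II, which also belongs to the citric acid cycle, was represented by Sdhb and Sdhd. Sdhb, the iron-sulfur subunit, had 110, 86.0 and 88.8 CPM in SHR and 120, 113 and 111 CPM in BNLx. The SHR libraries lay just below the BNLx libraries, with a log2 fold change of -0.28 (SE 0.13, adjusted p = 0.543 in edgeR), and -0.42 (adjusted p = 0.0102) without both libraries that stand apart. Sdhd, a membrane anchor, had 118, 85.3 and 86.4 CPM in SHR and 109, 93.1 and 96.2 CPM in BNLx, which overlap (log2 fold change -0.04, SE 0.16, and 0.03 in limma on log2(TPM + 1)).

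In complex III the 5 loci had log2 fold changes between -0.22 and -0.01, of which Uqcr11 and Uqcrb turned to 0.12 and 0.06 in limma on log2(TPM + 1). Uqcrh, the hinge subunit at the cytochrome c docking site, had 77.1, 50.8 and 53.4 CPM in SHR and 77.3, 69.6 and 64.7 CPM in BNLx (log2 fold change -0.22, SE 0.19, and -0.50, adjusted p = 0.0102 in edgeR, without both). Uqcr11, a small accessory subunit, was the most abundant locus of the complex, at 895 ± 80.6 TPM in SHR and 845 ± 225 TPM in BNLx. Its CPM were 233, 179 and 195 in SHR and 246, 221 and 144 in BNLx, so BNLx replicate 3 was the lowest of all 6. Its log2 fold change was -0.01 (SE 0.23) with all libraries and -0.32 (SE 0.08, adjusted p = 0.0319) without both. Uqcr11 shares its locus with Mbd3, and transcripts named Uqcr11 held 61.1% of the counts. Cycs, the mobile electron carrier, had 205, 167 and 167 CPM in SHR and 243, 234 and 190 CPM in BNLx. Its log2 fold change was -0.31 (SE 0.15, adjusted p = 0.569 in edgeR), and -0.51 (SE 0.06, adjusted p = 0.00457) without both libraries that stand apart.

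Complex IV had 7 tested subunit loci with a median log2 fold change of -0.17. Cox7b, a small subunit encoded on the X chromosome, had 104, 69.8 and 77.4 CPM in SHR and 126, 109 and 101 CPM in BNLx. Only SHR replicate 1 reached into the BNLx range, and the log2 fold change was -0.42 (SE 0.18, adjusted p = 0.506 in edgeR) with all libraries and -0.68 (adjusted p = 0.00762) without both. Cox6c was the most abundant of the complex IV subunits as grouped by symbol, with 951 ± 140 TPM in SHR and 1056 ± 34.6 TPM in BNLx. Its log2 fold change was -0.23 (SE 0.17), and -0.47 (adjusted p = 0.0166 in edgeR) without both. Cox7c was the 1 subunit of the complex with a positive log2 fold change, 0.11 (SE 0.24), with 142, 86.7 and 96.9 CPM in SHR and 121, 98.6 and 81.8 CPM in BNLx. Its sign turned without SHR replicate 1 or without BNLx replicate 3. The locus also holds LOC252890, and transcripts named Cox7c held 91.4% of its counts. With those transcripts alone the log2 fold change was 0.03 (SE 0.25). The aptardi isoform of LOC252890 had a log2 fold change of 1.09 (SE 0.22, adjusted p = 0.174 in edgeR). Cox16, an assembly factor of the complex, had 38.0, 33.5 and 32.5 CPM in SHR and 39.4, 44.1 and 43.3 CPM in BNLx, which do not overlap (log2 fold change -0.29, SE 0.11, adjusted p = 0.462 in edgeR, and -0.33, adjusted p = 0.0392, without both). The locus also holds Med6 and Adam4, and transcripts named Cox16 held 15.9% of its counts. With those transcripts alone, Cox16 had 5.99, 5.31 and 4.31 CPM in SHR and 6.36, 6.02 and 9.17 CPM in BNLx (log2 fold change -0.46, SE 0.25).

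All 8 complex V loci had negative log2 fold changes, between -0.25 and -0.07, with adjusted p of 0.617 to 0.912 in edgeR. Atp5f1b, the catalytic beta subunit, was the most abundant member of all, at 1302 ± 89.0 TPM in SHR and 1359 ± 15.2 TPM in BNLx. It had 1097, 912 and 917 CPM in SHR and 1118, 1077 and 1018 CPM in BNLx, with a log2 fold change of -0.14 (SE 0.14). Without both libraries that stand apart, its log2 fold change was -0.27 (SE 0.06, adjusted p = 0.0270 in edgeR). Atp5f1e, the epsilon subunit, had the largest change of the complex in that comparison, with a log2 fold change of -0.68 (SE 0.14, adjusted p = 0.0217). Atp5pb, a peripheral stalk subunit, was quantified together with LOC100911417, a copy on the same chromosome, and the copies were given equal counts, 3850 each for the main isoforms in SHR replicate 1. The values of Atp5pb therefore stand for both copies.

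Other mitochondrial genes were followed from lists outside the chosen symbols. Of 73 listed genes, 29 had a named locus and all were tested. None was called in edgeR in either direction, 1 had an unadjusted p under 0.05, and DESeq2 called 0. Of the 29, 22 were negative, against 49.9% of all loci. Without both libraries that stand apart, 11 were called lower and 0 higher, against 13.8% of all loci called lower. The 8 citric acid cycle enzymes were all negative, with a median log2 fold change of -0.08, as were 4 carriers and outer membrane proteins, with a median of -0.17. Of the complex I assembly genes outside the symbols, 4 of 6 were negative, with a median of -0.08, and Acad9 and Foxred1 had 0.32 and 0.18. Of the complex IV assembly genes, 3 of 6 were negative, with a median of -0.01. The members' median over all libraries was -0.16. Of the regulators, Nrf1 had a log2 fold change of 0.01, Polrmt, the mitochondrial RNA polymerase, had 0.06 and Tfam, which packages and transcribes mitochondrial DNA, had -0.26 (adjusted p = 0.589 in edgeR).

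Isoforms were compared to ask whether transcripts with other 3′ ends or exons differ between the strains. Of the aptardi isoforms of members, which lie in 23 loci, 41 end before the transcript they were derived from, by a median of 881 bases, and 18 end after it, by a median of 1484 bases. At an unadjusted p of 0.001 in edgeR's test, 3 of 151 tested member isoforms were called, against 324 of 32348 isoforms (1.00%). DESeq2 called 8 member isoforms, against 3.63% of all isoforms. The isoforms called by edgeR were the main isoforms of Ndufs5 and of the chromosome 6 Ndufa10l1 locus and an isoform in the Atp5mg locus. None was added by aptardi.

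The Atp5mg locus on chromosome 8 also holds Ube4a, a ubiquitin ligase gene. Atp5mg, the g subunit of the ATP synthase, had 139, 88.8 and 87.5 CPM for its own isoform in SHR and 145, 126 and 98.6 CPM in BNLx, with a log2 fold change of -0.23 (SE 0.25). The called isoform (49229717 to 49269411, minus strand, 20 exons) carries the name Ube4a. It had 880, 160 and 238 counts in SHR and 0 counts in each BNLx library (unadjusted p = 4.02e-04 and adjusted p = 0.0619 in edgeR). The call was lost without SHR replicate 1, 2 or 3, with unadjusted p of 0.00121, 0.00114 and 0.00248. The difference called in this locus is thus in a Ube4a transcript.

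Isoform usage within a locus was tested with diffSpliceDGE, and 2 of 40 tested members were called at an adjusted p of 0.05, against 332 of 7742 loci (4.29%). Limma's diffSplice on voom weights called 0 of the 40 members, against 154 of 7742 loci, with adjusted p of 0.524 for Ndufa4 and 0.421 for Ndufb6. Its unadjusted p was under 0.05 for 5 of the 40 members, a count not set against all loci here. Without both libraries that stand apart, 7 members were called, against 22.7% of all loci.

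Ndufa4 was the member whose own transcripts differed in usage (adjusted p = 0.00356). It was named for complex I and is now placed with complex IV. Its annotated transcript spans 38233680 to 38240848 on the minus strand of chromosome 4, and aptardi added isoforms ending 274 and 174 bases before its 3′ end. The isoform ending 274 bases earlier held 98.7%, 98.2% and 98.4% of the locus counts in SHR and 89.2%, 90.9% and 94.1% in BNLx. The isoform ending 174 bases earlier had 0, 3.79 and 0 counts in SHR and 688, 200 and 92.6 counts in BNLx. Its share was 0%, 0.127% and 0% in SHR and 9.31%, 8.51% and 4.39% in BNLx. The strains did not overlap in either isoform's share. As a single isoform it had an unadjusted p of 0.00142 in edgeR, which missed the threshold, and 8.76e-11 in DESeq2. Leaving out each library in turn kept the usage call, with adjusted p between 0.00185 and 0.0307. The ends of these 2 aptardi isoforms lie 100 bases apart, at 38233954 and 38233854. Aptardi predicts in bins of 100 bases and places an end at the last base of a bin, so these ends mark neighbouring bins. Whether they are separate polyadenylation sites was not tested. At the locus level Ndufa4 had 222, 141 and 144 CPM in SHR and 229, 204 and 162 CPM in BNLx (log2 fold change -0.23, SE 0.23, and -0.60, adjusted p = 0.00549 in edgeR, without both libraries that stand apart).

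The Ndufb6 locus on chromosome 5 had the lower adjusted p of the usage test (3.10e-05), and leaving out each library in turn kept the call. The locus also holds Topors, whose transcripts begin inside the 3′ part of the Ndufb6 transcript (56567109 to 56576676). The isoform named Ndufb6, a membrane arm subunit of complex I, held 45.1% ± 6.00 of the counts in SHR and 49.1% ± 6.06 in BNLx (SD, n = 3 each). A Topors isoform that aptardi ended 299 bases earlier had 90.3, 142 and 157 counts in SHR and 0.35, 0 and 0 counts in BNLx. The annotated Topors isoform held 22.9%, 8.27% and 18.1% of the counts in SHR and 31.4%, 26.8% and 28.3% in BNLx. The difference in usage thus lies in Topors transcripts, and the Ndufb6 isoform had 38.5, 25.5 and 28.9 CPM in SHR and 41.9, 36.4 and 30.1 CPM in BNLx (log2 fold change -0.22, SE 0.22).

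**Figure D4:**
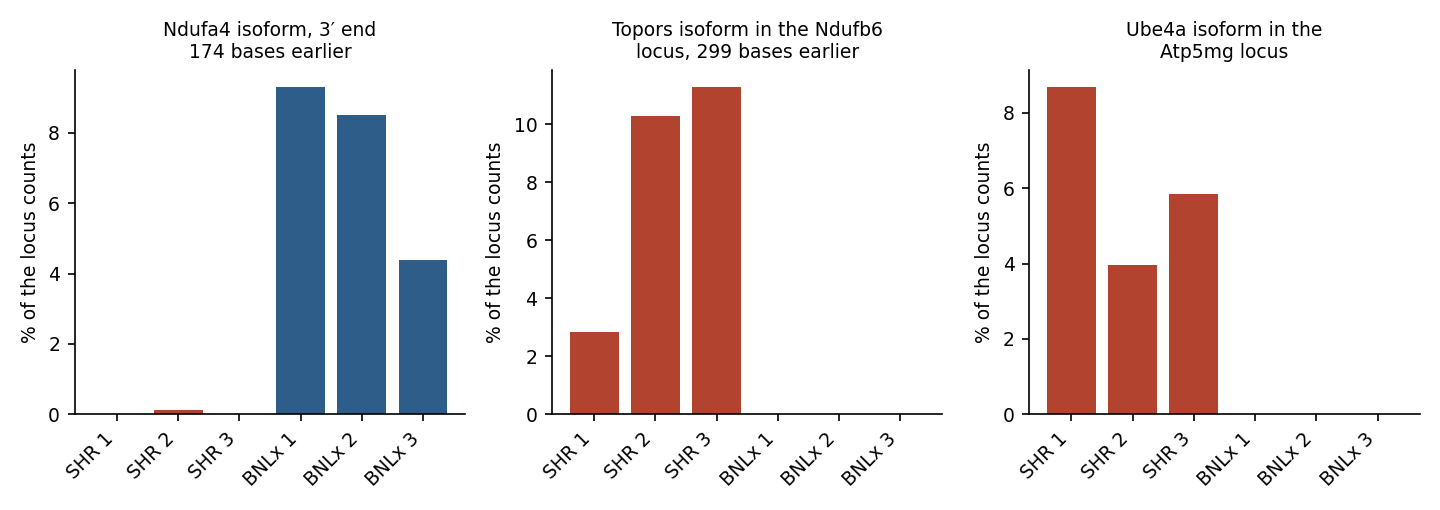
Share of the locus counts (percent, vertical axis) held by 3 isoforms in each library, SHR left of BNLx. The Ndufa4 isoform ending 174 bases earlier has at most 0.127% in SHR and 4.39% to 9.31% in BNLx. The Topors isoform in the Ndufb6 locus and the Ube4a isoform in the Atp5mg locus have shares in SHR and at most 0.0146% in BNLx.

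What a locus counts bears on many members. Of the 64 loci, 25 also hold another named gene. Transcripts with the member's own name held 1.33% of the counts of the Ndufc1 locus, 9.55% of Cox14, 13.1% of Ndufaf3 and 8.55% of Sdhaf4. Low shares also occurred in loci with no other named gene, where unnamed transcripts took the counts, at 1.34% in Cox7a2l and 6.43% in Ndufs7. Counted over transcripts with the member's own name only, the members' median log2 fold change was -0.18, and 1 member, Ndufs5, was called. The libraries were made with an unstranded kit, so reads of genes that overlap on opposite strands cannot be told apart.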

How the data were processed

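Whole-brain polyA RNA of 3 SHR and 3 BNLx rats was prepared with the Illumina TruSeq kit from 1 ug RNA and sequenced in pairs of 100-base reads. The authors trimmed reads with cutadapt, aligned them with HISAT2 to strain-specific forms of rn6, built transcript models in StringTie 1.3.5, with Ensembl as guide, extended the models by aptardi 1.0.0 and quantified them in RSEM. Which genome sequence RSEM read is not given in the sources used here. Expected counts were deposited per locus and isoform without normalization, and the deposited TPM values are scaled by length and within each library. Transcript positions come from the deposited annotation. The deposited table of the whole series, also expected counts, was not used.

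Expected counts were rounded and fitted over all loci or isoforms with at least 50 counts in 2 of 3 replicates of a strain (two-sided quasi-likelihood test of edgeR 4.0.16 under R 4.3.3, with TMM factors and no term but strain). Standard errors are the fold change over the root of F. Loci were called at a Benjamini-Hochberg adjusted p of 0.05, isoforms at an unadjusted p of 0.001 and usage (diffSpliceDGE) at an adjusted p of 0.05. Alternatives were DESeq2 1.42.0, limma 3.58.1, other scaling, no filter, a replicate block and left-out libraries. The depth was 11747048 to 41333078 counts per library. Counts of 0 were bounded with 3 counts per library, which covers counting error only.

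The members and lists were chosen with earlier results of these data known. Genes were named by a rule: members called, the 10 further members with the lowest p, those with a called isoform or usage, the 2 most abundant of each complex, those at 0 in 1 strain, and those at several loci. Other genes named were chosen after their values were seen.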

Additional observations from a re-analysis of the deposited data

How the results depend on the processing

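The number of members called at the gene level was 2 with all libraries, 40 without SHR replicate 1 and BNLx replicate 3, and 1 with only the transcripts of the member's name or with loci of the same name summed. It was 0 to 2 when libraries were left out singly. Called isoforms numbered 3, against 8 with DESeq2 and 5 without both libraries, and 1 to 3 when each library was left out. Usage calls numbered 2, against 0 with limma and 7 without both libraries, and 2 to 4 when each was left out. The members' median log2 fold change of -0.16 was -0.37 without both libraries and between -0.33 and -0.08 when each was left out. Over all loci, 147 calls became 543 with DESeq2, 4172 without both libraries and 12 to 156 when each was left out. Over all isoforms, 324 calls became 1166 with DESeq2 and 944 without both libraries. Over all loci tested for usage, 332 calls became 154 with limma and 1757 without both libraries.

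Signs turned for Sdhd (0.03 with limma on log2(TPM + 1), and 0.03 to 0.04 without SHR replicate 2, SHR replicate 3 or BNLx replicate 1, against -0.24 without both libraries), for Uqcr11 (0.12 with limma, 0.02 with the replicate block, and 0.02 to 0.14 without SHR replicate 2, SHR replicate 3, BNLx replicate 1 or BNLx replicate 2, against -0.32 without both) and for Cox7c (-0.13 without SHR replicate 1, -0.02 without BNLx replicate 3 and -0.27 without both, against 0.26 without BNLx replicate 1). The cause was not tested. Of the alternatives for named loci, 283 kept direction and side of the threshold, 17 passed it newly, 7 lost it and 13 turned sign.

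Both strains share replicate numbers. Deviations of same-numbered libraries correlated at -0.08, 0.36 and -0.26, and not every library correlated best with its own number. With so few libraries per strain, these correlations cannot tell whether the numbers pair the rats. With the replicate block, 0 of 60 members were called at the gene level, and 0 of all 14471 loci. The block called 0 of 151 member isoforms, against 48 of 32348 isoforms, and 3 of 40 members by usage, against 310 of 7742 loci. Without the filter on low counts all 64 members were fitted, 60 were negative and 2 were called.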
